A study of Arabidopsis thaliana with 12 samples.

Results

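The 9 ATG8 genes of Arabidopsis thaliana, ATG8A to ATG8I, were followed in whole roots of the wild type and of 3 channel mutants. They were chosen by name and locus: a probe set was taken if the array annotation names only 1 gene for it and that gene is an ATG8 gene. Each of the 9 genes had 1 such probe set, and they are 9 of the 13356 genes that the array names in this way. ATG8I (AT3G15580) is listed in that annotation under its older symbol APG8H, and ATG8A (AT4G21980) as APG8A. The other loci are AT4G04620 (ATG8B), AT1G62040 (ATG8C), AT2G05630 (ATG8D), AT2G45170 (ATG8E), AT4G16520 (ATG8F), AT3G60640 (ATG8G) and AT3G06420 (ATG8H). ATG8 genes resemble one another in sequence, and how far a probe set also binds the transcript of a related member was not tested.

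ATG8 is a small ubiquitin-like protein of autophagy, the process by which a cell encloses part of its own content in a double membrane, the autophagosome, and delivers it to the vacuole for breakdown. The protease ATG4 trims the ATG8 precursor to a final glycine, the enzymes ATG7 and ATG3 pass it on, and a complex of ATG5, ATG12 and ATG16 helps to link it to the lipid phosphatidylethanolamine, which anchors it in the growing membrane. There it binds the receptors that bring in cargo. In plants autophagy recycles nutrients and is known to be induced by starvation for carbon or nitrogen. Arabidopsis ATG8 proteins fall into related groups: ATG8A to ATG8D, ATG8E to ATG8G, and ATG8H with ATG8I, whose proteins already end in the glycine and do not need the trimming step.

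In all, 12 samples were measured, 3 for each of 4 genotypes, on single-colour arrays. The wild type, ws2, is the accession Wassilewskija. The mutants were akt1 (line akt1-1, in Wassilewskija), named for an inward potassium channel of the root, and cngc1 and cngc4, named for cyclic nucleotide-gated cation channels. No check of the labels was made on the channel genes, which were not analysed here. No treatment is given, all samples carry the same growth stage code, 3.90, and each RNA came from 20 to 40 pooled plants. The labels name no allele for the cngc lines and no accession other than the mutant's own name, so accession and mutation cannot be told apart in these lines. Nothing says that replicates came from separate growths, and p-values therefore measure only the spread between these samples.

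The median signal ran from 43.3 to 48.5 arbitrary units over the 12 arrays, which had been scaled to a common trimmed mean. One array, cngc1 replicate 3, stood apart in its scan readings: its noise was 12.9 against 3.91 to 6.65 on the others, it had 1251 outlier cells against 299 to 620, and its background was the highest, 143. It enters every cngc1 value below, and the medians of cngc1 against ws2 and akt1 are also given without it. The actin control has probe sets at both transcript ends, and its 3-prime over 5-prime ratio, a reading of RNA quality, ran from 1.42 to 2.06, and the same ratio for GAPDH from 1.03 to 1.25. Many of the root and shoot markers listed beforehand had no probe set naming them alone and were not measured. All 4 root markers that have one (EXPA7 and EXPA18 of root hairs, GUT2 of xylem, SWEET11 of phloem) lay above the 40th percentile on every array. None of the 4 was at 0. The 5 shoot markers measured (LHCB4.1, RCA, PRK, SBPASE and CHLM) did so too: their summed signal was 293 to 440.0 in ws2, 286 to 314.5 in akt1, 309 to 415.5 in cngc1 and 646 to 757 in cngc4. The cngc4 arrays thus stood above all others in shoot markers, and the part of this in the ATG8 values was not tested. A repeat mark, not explained, stands in the titles of 3 arrays: cngc4 replicate 1 and ws2 replicates 2 and 3.

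All 9 ATG8 genes were measured well above the low end of the arrays. Each lay above the 40th percentile of all probe sets on all 12 arrays, so none entered the test through 1 genotype alone. The scale is the deposited signal, which depends on the probes as well as on the transcript, so levels are compared below between genotypes for 1 gene at a time and not between genes.

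**Figure D1:**
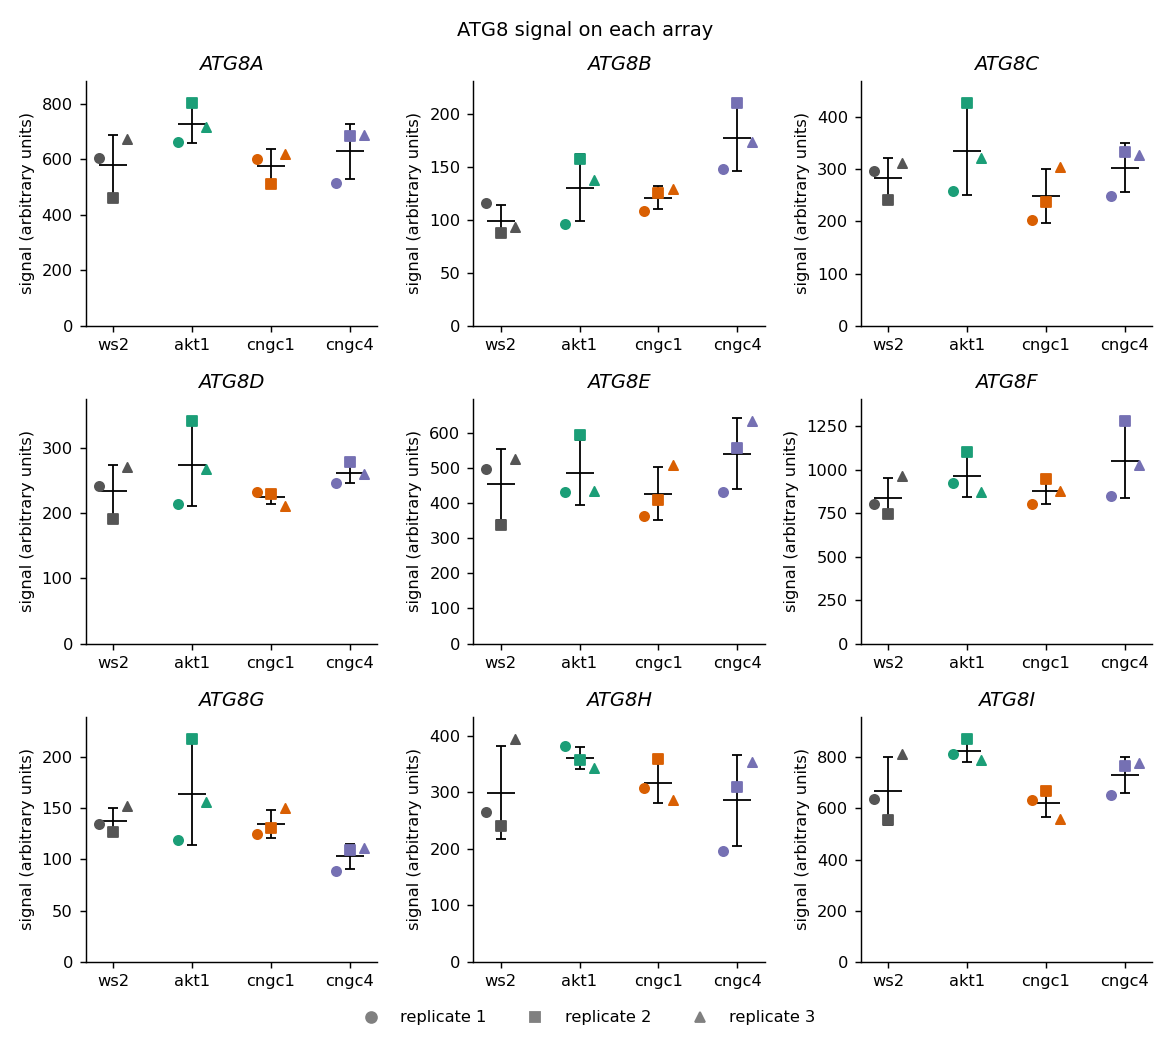
Deposited signal (arbitrary units, linear axis from 0) of each ATG8 gene by genotype; each point is 1 array, its shape gives the replicate number, and the bar and whiskers are the mean and SD of 3 arrays. The cngc4 arrays lie above the ws2 arrays for ATG8B and below them for ATG8G, and akt1 replicate 2 (green square) is the highest of its genotype in 8 of 9 genes.

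In cngc4 roots 1 of the 9 genes, ATG8B, rose, and the other 8 did not pass the test. ATG8B read 116, 87.2 and 93.2 on the ws2 arrays and 148, 210 and 173 on the cngc4 arrays, for replicates 1, 2 and 3. Every cngc4 array lay above every ws2 array. The means were 98.7 ± 15.0 in ws2 and 177 ± 31.2 in cngc4 (SD, n = 3 each). The difference was 0.74 (standard error 0.17) in log2(signal + 16), or 1.68-fold in signal + 16 (limma adjusted p = 0.0152). With no offset it was 0.84 on the log2 scale. Over all 14745 probe sets tested the same test called 9.09%, and 4.69% as higher, so 1 called gene of 9 is near what the array as a whole gave. In such bulk tissue, more transcript per cell and more cells that hold it cannot be told apart. Of the 5 shoot markers, LHCB4.1 (1.34, limma adjusted p = 0.00106) and CHLM (0.64, adjusted p = 0.00545) also rose in cngc4, and their part in the ATG8B value was not tested.

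The ATG8B call depended on single arrays. Without cngc4 replicate 2, the highest reading, the log2 fold change was 0.62 (limma adjusted p = 0.0996), and without ws2 replicate 2, the lowest reading, it was 0.67 (adjusted p = 0.0691). Within unmarked arrays alone, which leaves 1 ws2 and 2 cngc4 arrays, it was 0.65 (adjusted p = 0.31), and within the repeat-marked arrays, 2 ws2 and 1 cngc4, it was 0.62 (adjusted p = 0.332). The lone array of a genotype is there assumed to vary like the others. ATG8B was positive in all 27 alternative settings, from 0.56 to 0.86. Many of these settings left it at 0.74 by design, since they changed only the test or arrays of other genotypes. All drew on the same cngc4 and ws2 arrays, so the shared sign is not separate support.

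ATG8G, of the group with ATG8E and ATG8F, stood on the other side of ws2 in cngc4 and did not pass. It read 134, 127 and 152 in ws2 and 88.6, 109 and 111 in cngc4, for replicates 1 to 3, so every cngc4 array lay below every ws2 array. The log2 fold change was -0.37, with a 95% confidence interval from -0.73 to -0.01 (limma, unadjusted p = 0.0453, adjusted p = 0.199). Groups that do not overlap made up 30.9% of all probe sets tested in this comparison, and among the ATG8 genes these were ATG8B and ATG8G alone, 2 of 9. The same 2 genes had an unadjusted p under 0.05, beside 23.9% of all probe sets.

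The other 7 genes had overlapping signals in cngc4 and ws2. ATG8F read 850, 1279 and 1027 in cngc4 against 802, 746 and 966 in ws2, a log2 fold change of 0.31 with an interval from -0.03 to 0.65 (limma adjusted p = 0.247). With each array left out in turn it ran from 0.16 to 0.45. For ATG8E it was 0.25, from 0.06 to 0.40 with an array left out, and for ATG8D 0.16, from 0.03 to 0.27. ATG8A and ATG8C, also of the ATG8A to ATG8D group, had 0.12 and 0.09. The pair without need of trimming read 0.14 for ATG8I, from 0.02 to 0.29 with an array left out, and -0.07 for ATG8H. Over the 9 genes the median was 0.14 and 7 were positive, beside a median of -0.03 and 46.0% positive over all probe sets tested. The intervals of these 7 genes reached at most 0.67 (ATG8E) upwards and -0.50 (ATG8H) downwards. Without ws2 replicate 2 the median of the 9 was 0.02, with 5 positive, and within the repeat-marked arrays it was -0.04, with 4 positive.

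**Figure D2:**
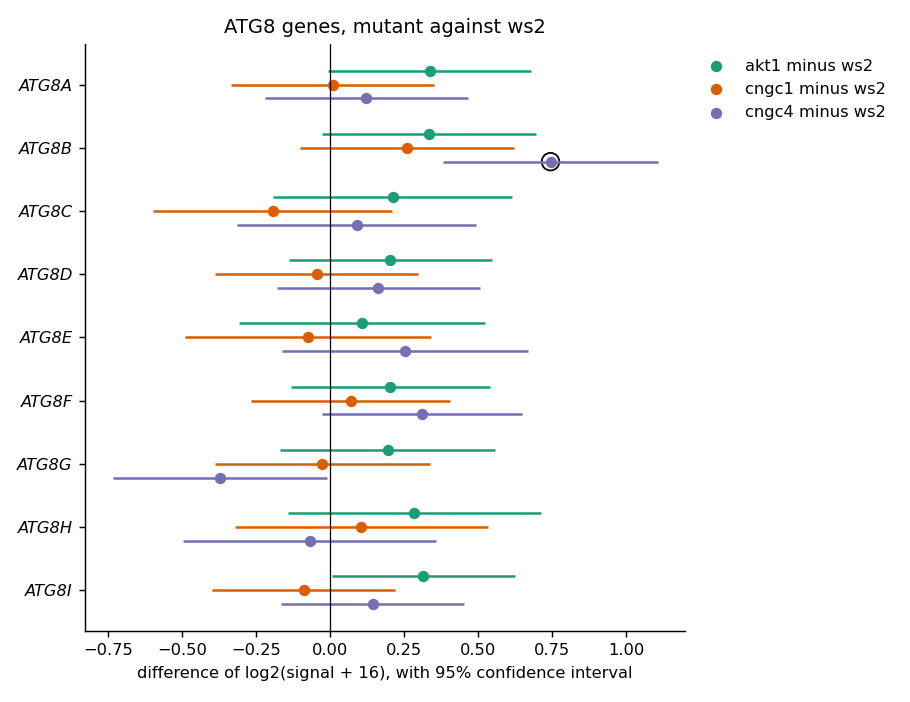
Difference of log2(signal + 16) between each mutant and ws2 for the 9 ATG8 genes (horizontal axis), with 95% confidence intervals from limma and 3 arrays per genotype; a ring marks an adjusted p under 0.05. The only ring is at ATG8B in cngc4 (0.74), all 9 points of akt1 lie to the right of 0, and ATG8G in cngc4 lies at -0.37.

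In akt1 roots all 9 ATG8 genes read higher on average than in ws2, and none passed the test. ATG8A read 664, 802.5 and 717 in akt1 and 604, 460 and 672 in ws2, for replicates 1 to 3. The log2 fold change was 0.34 with an interval from -0.01 to 0.68 (limma adjusted p = 0.957). ATG8I read 813, 870 and 789 in akt1 and 636, 553 and 812 in ws2, a log2 fold change of 0.32 with an interval from 0.01 to 0.62 (limma unadjusted p = 0.046, adjusted p = 0.957). In both genes 1 ws2 array, replicate 3, reached into the akt1 range. ATG8I alone had an unadjusted p under 0.05, 1 of 9, beside 5.06% of all probe sets tested.

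The remaining members in akt1 read 0.33 for ATG8B, 0.28 for ATG8H, 0.21 for ATG8C, 0.20 for each of ATG8D and ATG8F, 0.19 for ATG8G and 0.11 for ATG8E on the log2 scale. The median of the 9 was 0.21, beside -0.02 over all 14745 probe sets, of which 46.0% were positive and 0% were called. The groups overlapped in every one of the 9 genes, while 9.66% of all probe sets had groups that do not overlap. Without akt1 replicate 1 the median was 0.36, with all 9 positive, and without akt1 replicate 2 it was 0.11, with 7 of 9 positive and ATG8E at -0.04 and ATG8G at -0.01. Without ws2 replicate 2 the median was 0.14 and 8 were positive, with ATG8E at -0.08. Entering the repeat mark as a covariate gave a median of 0.12, with 8 positive. Among unmarked arrays alone, 1 ws2 and 3 akt1, it was 0.23, and 8 were positive.

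In cngc1 roots no ATG8 gene passed, and the signs were mixed. Of the 9 genes 4 were positive and 5 negative, with a median of -0.03 beside 0.01 over all probe sets, of which 0.00678% were called and 52.5% were positive. ATG8B read 108, 125 and 128.5 in cngc1, overlapping with ws2, a log2 fold change of 0.26 with an interval from -0.10 to 0.62 (limma adjusted p = 0.779). At the other end, ATG8C read 202, 237 and 304 in cngc1 and 297, 241 and 313 in ws2, a log2 fold change of -0.19. The other 7 lay between -0.09 (ATG8I) and 0.11 (ATG8H). No group of 3 cngc1 arrays stood apart from the 3 ws2 arrays in any ATG8 gene, against 12.8% of all probe sets. Without cngc1 replicate 3 the median was -0.02, with 3 positive, ATG8B at 0.22 and ATG8C at -0.34. The signs turned on single ws2 arrays: 1 of 9 was positive without ws2 replicate 2, with a median of -0.14, and 8 of 9 without ws2 replicate 3, with a median of 0.06.

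By mean log2(signal + 16), akt1 was the highest genotype in 6 genes (ATG8A, ATG8C, ATG8D, ATG8G, ATG8H and ATG8I) and cngc4 in 3 (ATG8B, ATG8E and ATG8F). The lowest mean was in ws2 for ATG8A, ATG8B and ATG8F, in cngc1 for ATG8C, ATG8D, ATG8E and ATG8I, and in cngc4 for ATG8G and ATG8H. No neighbours in these orders passed the test against each other. Their arrays overlapped in every case but 2: cngc1 stood above cngc4 for ATG8G, and akt1 above cngc4 for ATG8I. Of all probe sets, 27.4% had groups that do not overlap in cngc4 against cngc1, and 28.7% in cngc4 against akt1.

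Between mutants no ATG8 gene passed either, and the 3 comparisons share arrays with those above. ATG8G came closest: it read 119, 217 and 156 in akt1, each above the 88.6 to 111 of cngc4. The difference between cngc4 and akt1 was -0.57 (standard error 0.17) on the log2 scale (limma adjusted p = 0.0508, where 8.88% of all probe sets were called and 28.7% had groups that do not overlap). In that comparison 3 of the 9 genes were positive, beside 49.4% of all probe sets, and the arrays did not overlap for ATG8G and ATG8I, 2 of 9. ATG8G passed in 7 of 26 alternative settings, among them quantile normalization (adjusted p = 0.0409), the replicate number as a block (adjusted p = 0.0383) and the fit without akt1 replicate 1 (log2 fold change -0.76, adjusted p = 0.00951). Without akt1 replicate 2, the highest akt1 reading, it was -0.36 (adjusted p = 0.22), and without cngc4 replicate 1, the lowest cngc4 reading, it was -0.48 (adjusted p = 0.157). ATG8B had 0.41 in cngc4 against akt1 (adjusted p = 0.145) and 0.49 against cngc1 (adjusted p = 0.107, with 5.17% called over all). In cngc4 against cngc1 the arrays did not overlap for ATG8B, ATG8D and ATG8G, 3 of 9, beside 27.4% of all probe sets, and 7 of 9 were positive, beside 43.4%. In cngc1 against akt1 all 9 genes were negative, with a median of -0.22 and ATG8I at -0.40 (adjusted p = 0.355, with 0.00678% called over all). That median was -0.39 without akt1 replicate 1 and -0.09 without akt1 replicate 2, when ATG8B was positive, and -0.29 without cngc1 replicate 3. In that comparison the cngc1 arrays lay below every akt1 array for ATG8A and ATG8I, 2 of 9, beside 14.9% of all probe sets with groups that do not overlap. Of all probe sets 54.3% were positive there.

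**Figure D3:**
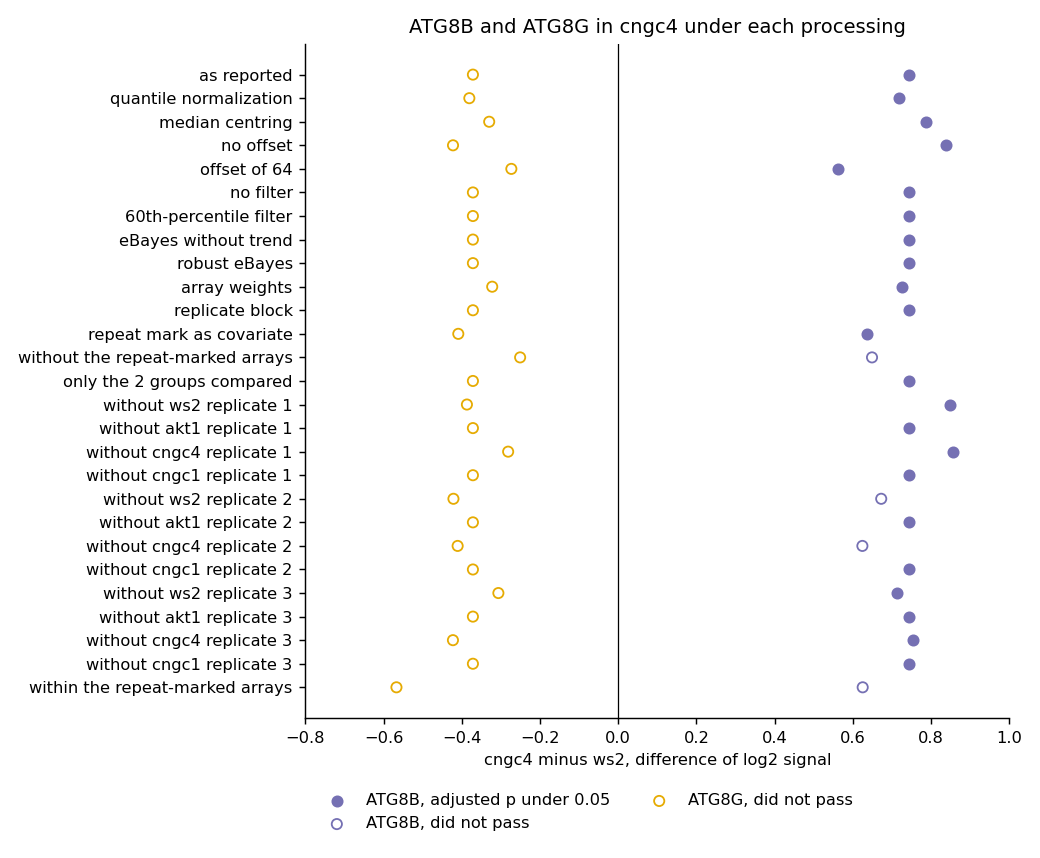
Difference of log2 signal between cngc4 and ws2 (horizontal axis) for ATG8B and ATG8G under the reported analysis and each alternative; filled points have an adjusted p under 0.05 and open points do not. ATG8B stays between 0.56 and 0.86 and is open in 4 of the settings drawn, and ATG8G stays between -0.57 and -0.25 and is open in all.

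The ATG8 genes varied together from array to array within a genotype. With each gene expressed as its deviation from the mean of its genotype, all 36 pairs of ATG8 genes had a positive Pearson correlation over the 12 arrays, from 0.15 (ATG8B with ATG8H) to 0.92 (ATG8C with ATG8G), with a median of 0.67. These values are descriptions: the points share their arrays, and the 3 deviations of a genotype sum to 0. ATG8C with ATG8E (0.90) and the pair ATG8H with ATG8I (0.88) came next. ATG8H had the lowest median correlation with the other members, 0.47. For comparison, the 11 other autophagy genes described below had a median of 0.14 over 55 pairs, of which 38 were positive. Mean signals of those 11 ran from 35.5 (ATG14A) to 273.5 (ATG3), and median signals of the ATG8 genes from 127 (ATG8B) to 903 (ATG8F). The part of signal level in these correlations was not tested, nor that of probe sets binding transcripts of related ATG8 members. No such median over all probe sets is given here, so the values are not shown to be particular to the family.

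On some arrays nearly all 9 genes deviated the same way. In ws2 replicate 2 all 9 genes lay below the mean of their genotype, with a median deviation of -0.25 on the log2 scale, and in cngc4 replicate 1 all 9 did, with -0.26. In akt1 replicate 2 and in ws2 replicate 3, 8 of 9 lay above it, with medians of 0.27 and 0.21. Of all probe sets tested, 54.2% lay above the genotype mean on ws2 replicate 2 and 53.0% on cngc4 replicate 1. On akt1 replicate 2 this share was 45.1% and on ws2 replicate 3 it was 49.4%. The median akt1 difference given above, 0.21, is near these single-array ATG8 medians in size. It is a difference between means of 3 arrays, an unlike measure, and the part of single-array deviations in it was not tested.

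The actin control ratio was highest on the array where the ATG8 genes stood highest by mean deviation, in each of the 4 genotypes. In ws2 this was replicate 3 (ratio 1.94), in akt1 replicate 2 (2.06), in cngc4 replicate 2 (1.94) and in cngc1 replicate 3 (1.54), the array with the high noise. For the GAPDH control ratio this was so in 3 of 4 genotypes, cngc1 being the exception. The array with the lowest actin ratio was the one with the lowest ATG8 mean in 1 of 4 genotypes, cngc4. By number of genes, cngc4 replicate 3 was the highest array in 5 and cngc4 replicate 2 in 4. Their mean deviations were close, 0.11 and 0.14. In cngc1, replicate 3 was the highest array in 5 genes and the lowest in 3. Across genotypes, the GAPDH ratio of every akt1 array (1.12 to 1.19) was above that of every ws2 array (1.03 to 1.09). So was that of every cngc1 array (1.12 to 1.24). The actin ratios of akt1 (1.58 to 2.06) and ws2 (1.53 to 1.94) overlapped. The part of RNA quality in the ATG8 values was not tested.

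**Figure D4:**
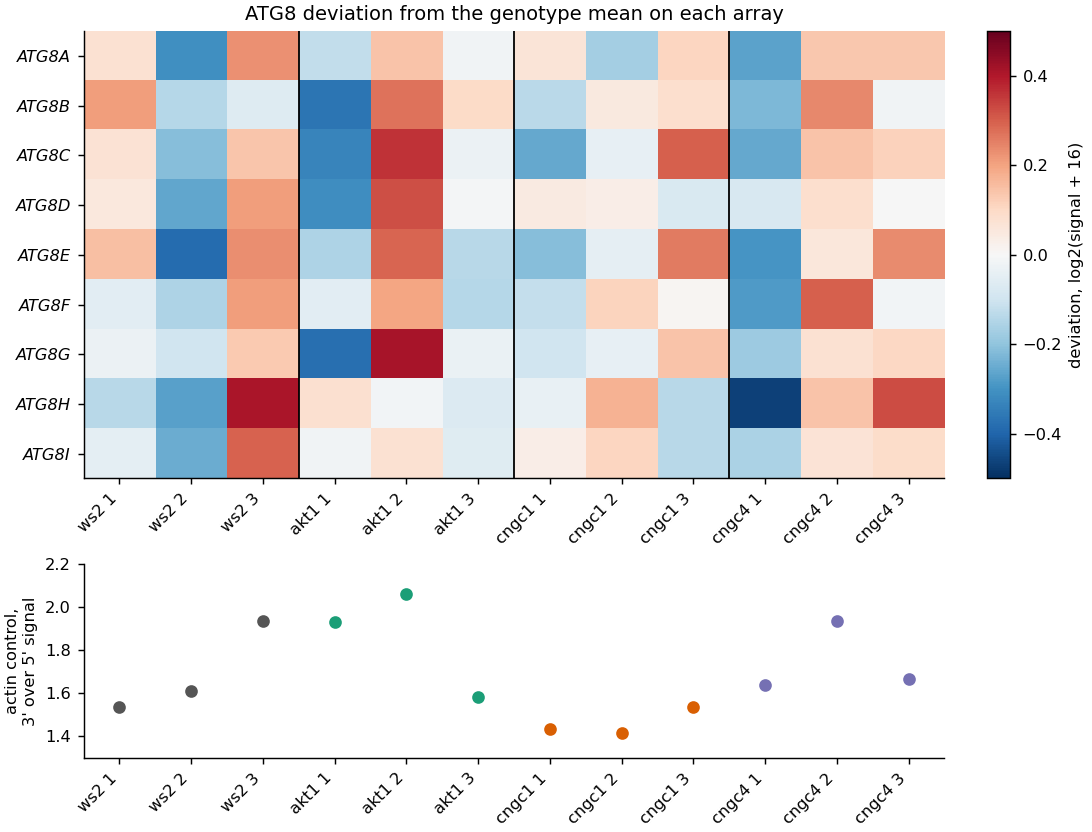
Top, deviation of each ATG8 gene from the mean of its genotype on each of the 12 arrays, in units of log2(signal + 16), red above and blue below; bottom, 3-prime to 5-prime signal ratio of the actin control on the same arrays (axis starts above 0). The columns of ws2 replicate 2 and cngc4 replicate 1 are blue for all 9 genes, and the highest actin ratio, 2.06, is that of akt1 replicate 2.

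No other autophagy gene passed the test against ws2 in any of the 3 mutants. Of 46 further autophagy genes on the list used here, 13 had a probe set that names them alone and 11 were tested. The list was drawn up with earlier results of these data known. At an unadjusted p under 0.05 there was 1 in cngc4, 2 in cngc1 and 0 in akt1, beside 23.9%, 7.32% and 5.06% of all probe sets. The median log2 fold change of the 11 was 0.04 in cngc4, 0.03 in cngc1 and 0.01 in akt1.

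Of the kinase complex that starts autophagy, ATG1C read 82.9 to 93.4 in ws2 and 115 to 125 in cngc4, with no overlap. Its log2 fold change of 0.39 did not pass (limma adjusted p = 0.131). In cngc4 against ws2, 30.9% of all probe sets had groups that do not overlap. A dimmer ATG1C probe set, with a mean signal of 30.3, was also tested and is not described here. ATG1A (-0.02) and ATG1B (-0.04), which encode the same kind of kinase, were near 0 in cngc4. ATG101, a partner of ATG1, read 0.10 in cngc4 and -0.28 in cngc1, and did not pass in either. RAPTOR1B, a subunit of the TOR kinase complex that restrains autophagy, had 0.41 in cngc1, with 1 array at 160 and the others at 93.1 and 103.5 (adjusted p = 0.633).

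ATG14A, of a phosphatidylinositol 3-kinase complex, read 28.4 to 33.6 in ws2 and 40.9 to 51.3 in cngc1, with no overlap. Its log2 fold change of 0.39 did not pass (limma adjusted p = 0.637). In cngc1 against ws2, 12.8% of all probe sets had groups that do not overlap. VPS38, of a related phosphatidylinositol 3-kinase complex, lay between -0.08 and -0.07 in the 3 mutants. Of the genes that act on the ATG8 protein itself, the protease gene ATG4B read -0.02 in cngc4, 0.06 in cngc1 and -0.02 in akt1. ATG3, for the enzyme that hands ATG8 to the lipid, read 0.18, 0.03 and 0.07 in the same order. SH3P2, which binds autophagosome membranes, read -0.08, 0.07 and 0.07.

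ATG16, whose protein helps to place the ATG8 conjugate on the membrane, was the only further autophagy gene to pass in any comparison. It read 92.9, 95.0 and 105 in akt1 and 135, 141 and 162 in cngc4, in order of size. ws2 lay between them at 110 to 130, overlapping with neither. Of all probe sets, 30.9% in cngc4 and 9.66% in akt1 did not overlap with ws2. The difference between cngc4 and akt1 was 0.51 (standard error 0.14) on the log2 scale (limma adjusted p = 0.0312, where 8.88% of all probe sets were called). Against ws2 it had 0.24 in cngc4 (adjusted p = 0.30) and -0.27 in akt1 (adjusted p = 0.957), and did not pass. The cngc4 against akt1 call was lost in 10 of 26 alternative settings, among them those without akt1 replicate 1, 2 or 3 or cngc4 replicate 1 or 2, in which the log2 fold change stayed between 0.44 and 0.56. Its sign in akt1 was opposite to that of all 9 ATG8 genes.

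**Figure D5:**
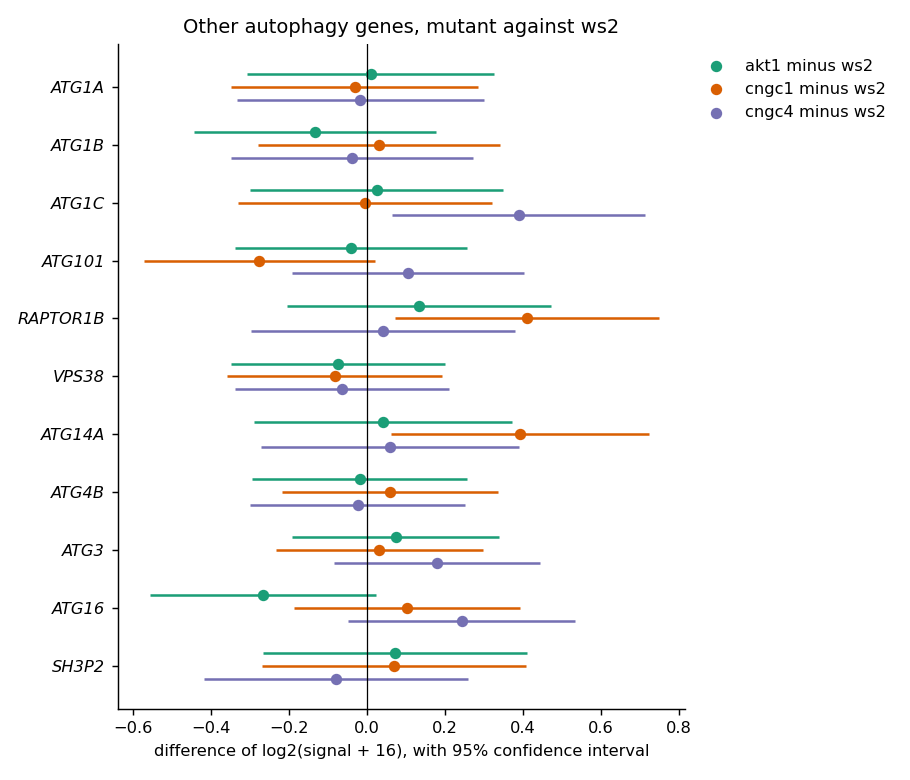
Difference of log2(signal + 16) between each mutant and ws2 for 11 other autophagy genes (horizontal axis), with 95% confidence intervals from limma and 3 arrays per genotype. No gene has an adjusted p under 0.05, and the points farthest from 0 are RAPTOR1B and ATG14A in cngc1 (0.41 and 0.39) and ATG1C in cngc4 (0.39).

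Among 8123 tested probe sets that name 1 gene other than ATG8, those whose profile over the 12 arrays was most like the mean standardized ATG8 profile were AT5G66490 (Pearson r = 0.93), AT3G57480 (0.92), CW14 (0.91), AT1G26690 (0.91) and AT2G25070 (0.90). These are the highest of 8123 values and serve as a description only. For ATG8B the closest were AT4G30760 (0.93) and AT1G50290 (0.92), and for ATG8G AT2G36410 (0.97) and AT2G38740 (0.94). CW14 was also close to ATG8D (0.94), and AT2G25070 to ATG8A (0.91). The other closest were AT3G60070 for ATG8A (0.92), AT2G18210 and AT3G27880 for ATG8C (0.92 and 0.91) and AT4G23880 for ATG8D (0.94). For ATG8E they were AT3G50880 and AT1G54520 (0.89 and 0.88) and for ATG8F AT4G10170 and AT3G48710 (0.95 and 0.93). For ATG8H they were AT3G44510 and AT1G73120 (0.89 and 0.88) and for ATG8I SRX and AT1G30260 (0.92 and 0.91).

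The gene next to ATG8B in gene order, AT4G04630, did not pass in cngc4. It had a log2 fold change of -0.02 in cngc4 (limma adjusted p = 0.968), and of -0.83 in cngc1 and -0.84 in akt1, neither of which passed (adjusted p = 0.478 and 0.957). It was looked at after the ATG8B value was seen. The nearest tested gene on the other side, AT4G04460, lay 14 genes away and had -0.53 in cngc4 (adjusted p = 0.062).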

How the data were processed

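Per the labels' protocols, root RNA was extracted with TRIzol and labelled with biotin for a 22810-probe-set array. The authors deposited a linear intensity, the signal, for each probe set on each array. Their software was not stated in the sources used. The 2% trimmed mean was 100.0 on every array, so arrays had been scaled before deposit. Here, 64 control probe sets were left out, values were taken as log2(signal + 16), so that changes at low signal are understated, and 14745 probe sets above the 40th percentile of their array on at least 3 arrays were kept. Limma 3.58.1 (R 4.3.3) fitted 4 genotype means to 12 arrays, using eBayes with a trend in the prior variance. The two-sided tests were adjusted by Benjamini-Hochberg over all 14745 with a threshold of 0.05. The median standard error was 0.16, and the number of arrays limits the precision. No permutation test was used, since an exact one on 3 against 3 arrays has a smallest p of 0.10. The fit was also run on simulated data with independent noise for each probe set and array. That run cannot speak to deviations shared between genes on an array.

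Names came from the array's annotation table, with symbols updated from the TAIR10.1 gene table (13436 of 13513 matched). No coordinates are printed, as no build is named for the array. The members and gene lists were chosen with earlier results of these data known. All 9 ATG8 genes are named. Other autophagy genes are described from a list of 46, each through the brightest probe set that names it alone: the rule named up to 4 per mutant by smallest p, and the rest of the 11 tested were named after their values were seen. By the rule the 5 genes most correlated with the mean ATG8 profile and the 2 most correlated with each member are named. Of 18 pairs of arrays with the same replicate number in different genotypes, 3 had deviations correlated above 0.1, and the numbers were therefore not treated as a pairing. The alternatives tried were median centring, quantile normalization, no offset (zeros set to the smallest value above 0) or 64, no filter or the 60th percentile, eBayes without trend or robust, array weights, a replicate block, the repeat mark as covariate, no marked arrays, each array left out in turn, a fit to only the 2 genotypes compared, a 2-fold change at an unadjusted p under 0.05, and, added after the data were seen, the marked arrays alone.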

Additional observations from a re-analysis of the deposited data

How the results depend on the processing

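With 3 arrays per genotype, small differences could not be told from the spread. The count of ATG8 genes called in cngc4 against ws2, 1 as reported, was 0 without the repeat-marked arrays, 0 within those arrays (a setting chosen after seeing the data) and 0 with an unadjusted p under 0.05 and a 2-fold change. It was 0 to 1 when each array was left out in turn. In cngc4 against akt1 it was 0 as reported, and 1 (ATG8G) under quantile normalization, the 60th-percentile filter, robust eBayes, array weights and the replicate block, and 0 to 1 with each array left out. The counts for the other 4 comparisons were 0 in each setting. The replicate numbers were not taken as pairs, and with the replicate block ATG8B in cngc4 stayed at 0.74 (limma adjusted p = 0.0151). The probe sets called over the whole array ran from 5 to 2364 in cngc4 against ws2, from 304 to 1757 in cngc4 against akt1 and from 129 to 988 in cngc4 against cngc1.

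These log2 fold changes, none of which had passed, changed sign, and the cause was not tested. With array weights ATG8H in cngc4 against ws2 was 0.082. With the repeat mark as covariate ATG8A, ATG8F and ATG8H in cngc1 against ws2 were -0.16, -0.045 and -0.059, and ATG8E in akt1 was -0.12. Without the repeat-marked arrays ATG8H in cngc4 was 0.30, ATG8A and ATG8G in cngc1 were -0.068 and 0.0048, and ATG8E in akt1 was -0.045. In the same setting ATG8C in cngc4 against akt1 was 0.0062 and ATG8H in cngc4 against cngc1 was 0.059. Within the repeat-marked arrays ATG8A, ATG8C and ATG8I in cngc4 were -0.11, -0.13 and -0.040.

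With each array left out in turn, values in cngc4 against ws2 ran from -0.030 to 0.26 (ATG8A), -0.017 to 0.22 (ATG8C) and -0.23 to 0.17 (ATG8H). In cngc1 against ws2 they ran from -0.14 to 0.12 (ATG8A), -0.18 to 0.059 (ATG8D), -0.27 to 0.042 (ATG8E), -0.0082 to 0.17 (ATG8F), -0.10 to 0.039 (ATG8G), -0.030 to 0.31 (ATG8H) and -0.21 to 0.059 (ATG8I). In akt1 against ws2 they ran from -0.085 to 0.22 (ATG8E) and -0.011 to 0.38 (ATG8G). Between mutants they ran from -0.29 to 0.057 (ATG8C), -0.20 to 0.12 (ATG8D) and -0.041 to 0.25 (ATG8F) in cngc4 against akt1, from -0.34 to 0.059 (ATG8H) in cngc4 against cngc1, and from -0.26 to 0.061 (ATG8B) in cngc1 against akt1.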
